A study of Homo sapiens with 16 samples.

Results

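These results concern 1714 H3K27me3 peaks of THLE-2 cells that lay over EZH2 in the second H3K27me3 replicate and had no counterpart in the first. They were chosen by the deposited peak calls of H3K27me3 and EZH2, from the 90461 peaks on chromosomes 1 to 22 and X in H3K27me3 replicate 2, of which 2.49% overlapped EZH2. A peak was kept when it overlapped an EZH2 peak of either EZH2 replicate by at least 1 bp and overlapped no peak of H3K27me3 replicate 1. They are called replicate 2-only peaks here. The 539 replicate 2 peaks that overlapped EZH2 and also a replicate 1 peak are called shared peaks and serve as their comparison. THLE-2 is an immortalised, non-tumour liver epithelial line, and HepG2 is a liver carcinoma line.

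Chromatin immunoprecipitation with sequencing (ChIP-seq) was done for JARID2 in HepG2 and for JARID2, EZH2 and H3K27me3 in THLE-2, with 2 biological replicates of each and an input library for every immunoprecipitate. The labels give no genetic change and no drug treatment for either line, and each line stands for 1 cell line only. Peaks do not measure expression, so the labelled cell type was not checked by markers. H3K27me3 replicates 1 and 2 held 39.0 M and 38.1 M filtered tags and 46173 and 90461 peaks on these chromosomes. The EZH2 replicates held 2081 and 3637 peaks, the HepG2 JARID2 replicates 15687 and 4075, and the THLE-2 JARID2 replicates 5351 and 5526. In the H3K27me3 and EZH2 lists the median deposited false discovery rate of a peak was 100%.

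Polycomb repressive complex 2 silences genes of embryonic development in tissues where they are not used. EZH2 is its catalytic subunit and places the H3K27me3 mark, JARID2 is an accessory subunit that binds DNA and helps recruit the complex, and chromobox proteins of the partner complex PRC1 read the mark. In mammals, the complex collects at CpG islands, stretches rich in unmethylated CG dinucleotides that often hold a gene start.

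The promoters below show what the DNA at these sites looked like. They are GRCh38.p14 sequences from RefSeq, 250 bases before to 50 bases after the gene start, read 5′ to 3′ on the gene's strand, with each CG in capitals. GSC2 and PAX9 are at the 2 replicate 2-only peaks that met JARID2 in 3 of 4 libraries, CEBPA is a liver factor, and HOXD4 is a CG-poor case in a HOX cluster. WNT16 and EBF1, chosen after their values were seen, stand for shared peaks.
GSC2 (chr22:19150243-19150542, minus strand, 48 CG): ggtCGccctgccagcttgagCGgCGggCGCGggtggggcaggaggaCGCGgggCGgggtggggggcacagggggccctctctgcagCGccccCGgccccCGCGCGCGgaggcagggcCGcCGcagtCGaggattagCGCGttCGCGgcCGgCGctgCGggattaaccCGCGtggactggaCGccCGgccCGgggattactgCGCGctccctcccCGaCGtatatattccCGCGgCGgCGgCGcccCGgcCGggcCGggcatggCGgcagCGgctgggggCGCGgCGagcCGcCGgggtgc
PAX9 (chr14:36657318-36657617, plus strand, 19 CG): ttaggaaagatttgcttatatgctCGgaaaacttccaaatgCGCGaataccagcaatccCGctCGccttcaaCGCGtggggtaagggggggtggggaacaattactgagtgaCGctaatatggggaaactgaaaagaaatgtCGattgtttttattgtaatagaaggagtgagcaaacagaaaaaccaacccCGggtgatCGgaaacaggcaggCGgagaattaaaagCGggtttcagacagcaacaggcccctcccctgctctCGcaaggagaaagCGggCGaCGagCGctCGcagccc
CEBPA (chr19:33302485-33302784, minus strand, 50 CG): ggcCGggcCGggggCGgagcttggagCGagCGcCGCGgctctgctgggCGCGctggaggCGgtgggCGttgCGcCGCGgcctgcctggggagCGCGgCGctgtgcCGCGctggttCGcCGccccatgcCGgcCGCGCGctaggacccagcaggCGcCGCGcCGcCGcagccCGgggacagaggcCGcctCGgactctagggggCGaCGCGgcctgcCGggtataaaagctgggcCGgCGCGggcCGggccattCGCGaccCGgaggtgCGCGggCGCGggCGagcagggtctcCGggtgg
HOXD4 (chr2:176151300-176151599, plus strand, 4 CG): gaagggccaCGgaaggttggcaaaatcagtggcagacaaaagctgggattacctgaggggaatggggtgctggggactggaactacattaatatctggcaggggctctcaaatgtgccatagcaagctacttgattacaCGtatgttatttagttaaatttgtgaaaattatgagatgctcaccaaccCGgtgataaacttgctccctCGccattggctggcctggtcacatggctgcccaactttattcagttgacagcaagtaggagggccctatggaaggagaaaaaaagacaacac
WNT16 (chr7:121328750-121329049, plus strand, 20 CG): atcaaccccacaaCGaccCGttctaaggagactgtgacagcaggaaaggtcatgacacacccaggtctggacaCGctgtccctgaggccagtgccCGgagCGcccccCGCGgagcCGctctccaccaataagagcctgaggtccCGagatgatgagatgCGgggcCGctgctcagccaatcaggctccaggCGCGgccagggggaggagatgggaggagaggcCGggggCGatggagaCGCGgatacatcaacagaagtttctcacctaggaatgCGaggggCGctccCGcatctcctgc
EBF1 (chr5:159097907-159098206, minus strand, 8 CG): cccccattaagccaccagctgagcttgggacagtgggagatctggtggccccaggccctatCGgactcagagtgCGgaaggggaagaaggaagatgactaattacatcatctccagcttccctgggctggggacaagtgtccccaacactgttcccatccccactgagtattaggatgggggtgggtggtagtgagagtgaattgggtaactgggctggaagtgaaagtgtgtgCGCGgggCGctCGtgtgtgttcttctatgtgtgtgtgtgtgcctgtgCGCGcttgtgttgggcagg

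Promoters inside replicate 2-only peaks were rich in CG. RefSeq's table gave a start for 15812 of 19974 protein-coding genes, and 686 of these starts lay inside a replicate 2-only peak and 47 inside a shared peak. The median promoter held 28 CG in replicate 2-only peaks and 18 in shared peaks, against 22 over all 15812 promoters. Promoters with a GC share of at least 50% and a CG count of at least 0.6 times that expected from their base composition came to 558 of 686 (81.3%, Wilson 95% interval 78.3% to 84.1%) in replicate 2-only peaks. In shared peaks they came to 25 of 47 (53.2%, 39.2% to 66.7%), and over all promoters to 63.4%. At least 1 CG, which reads the same on both strands, was found in 98.1% of all promoters. These are counts within single peak lists, so the intervals cover counting error only and no test over cultures was possible.

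**Figure D1:**
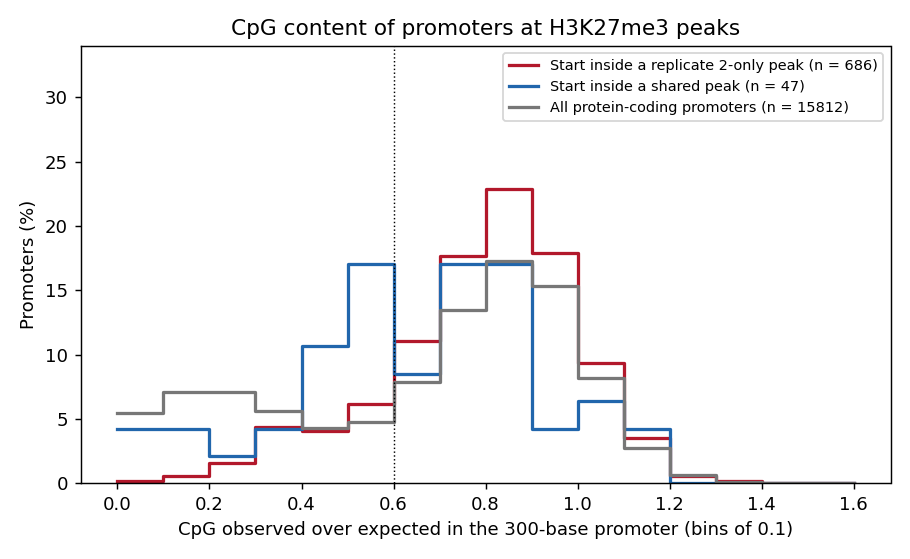
CpG observed over expected (x axis, bins of 0.1) in the 300-base promoters whose start lay inside a replicate 2-only peak, inside a shared peak, or in the whole table; the y axis is the percentage of promoters. The dotted line marks 0.6, and the replicate 2-only promoters centre on a median of 0.82 against 0.68 in shared peaks.

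Several microRNA genes also lay inside these peaks. Of 1558 microRNA hairpins, 19 (1.22%) overlapped a replicate 2-only peak, 1 overlapped a shared peak, and 84 (5.39%) overlapped any replicate 2 peak. The 19 include both MIR9-1 and MIR9-2, source genes of miR-9, a regulator of neural progenitors, and MIR10B and MIR196B, which sit inside HOX clusters. MIR132 and MIR212, a neuronal pair in 1 peak (chr17:2048688-2052583), share a seed in their 3p products, and MIR148A yields a microRNA abundant in liver. Mature RefSeq sequences follow with the seed, bases 2 to 8, in capitals.
hsa-miR-9-5p: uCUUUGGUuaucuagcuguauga
hsa-miR-10b-3p: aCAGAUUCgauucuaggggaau
hsa-miR-196b-5p: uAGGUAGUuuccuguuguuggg
hsa-miR-132-3p: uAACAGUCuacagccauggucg
hsa-miR-212-3p: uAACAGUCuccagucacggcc
hsa-miR-148a-3p: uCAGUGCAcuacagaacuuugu

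The peak over MIR9-2 (chr5:88666658-88668346) had a fold enrichment over input of 34.59, the second highest of the 1714, while that over MIR9-1 (chr1:156417003-156425579) had 7.14. Fold enrichment is the authors' ratio of immunoprecipitate to local input background and describes peaks within a list. Values of different antibodies given side by side come from separate lists and are not compared in size.

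Replicate 2-only peaks were wide. Their median width was 4055 bp (quartiles 2373 and 6626 bp), against 1896 bp (quartiles 1174 and 3470 bp) for shared peaks and 971 bp for the 52324 replicate 2 peaks with neither EZH2 nor a replicate 1 peak. Of the replicate 2-only peaks 658 (38.4%) were wider than 5 kb and 172 (10.0%) wider than 10 kb, against 82 (15.2%) and 32 (5.94%) of shared peaks. The rule used this peak list, so widths and strengths are given as a description with no test.

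**Figure D2:**
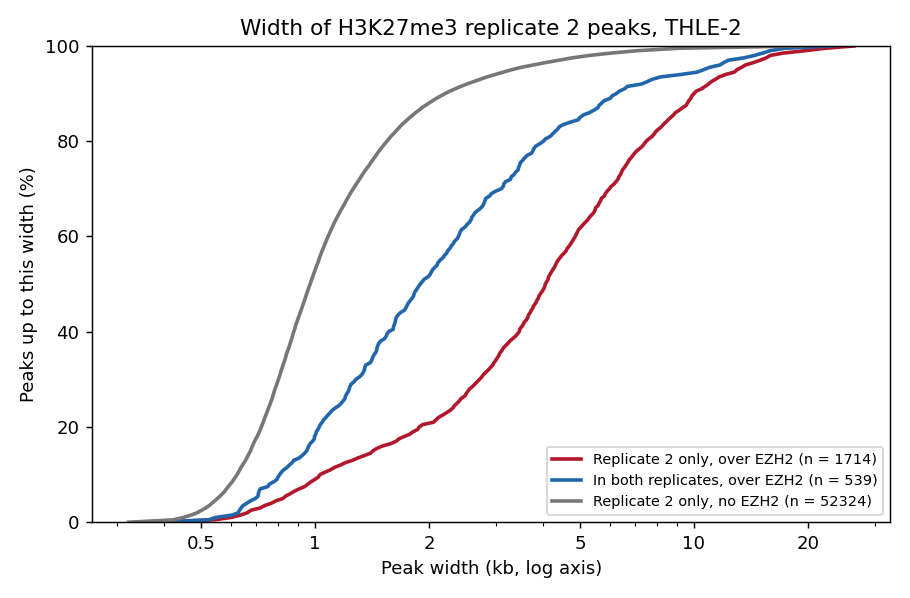
Cumulative width of H3K27me3 replicate 2 peaks in THLE-2: the x axis is width in kb on a log scale and the y axis the percentage of peaks up to that width. The curve of the 1714 replicate 2-only peaks over EZH2 lies to the right of that of the 539 shared peaks, with medians of 4055 and 1896 bp, and the grey curve of 52324 peaks with neither EZH2 nor replicate 1 lies furthest left, with 971 bp.

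The widest replicate 2-only peak ran over FOXF1, a forkhead factor of lung and gut mesenchyme (chr16:86487746-86514236, 26491 bp). Others covered the start of MNX1, a motor neuron and pancreas factor (25430 bp), and FGF8, a growth factor of embryonic patterning (23068 bp). Another, of 24397 bp, held the sites of HOXA3, HOXA5, HOXA6 and HOXA7. Some wide peaks belonged to genes outside development, among them LRRC4B, a synaptic adhesion gene (26174 bp).

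The replicate 2-only peaks held many tags, but their fold enrichment was modest. Their median tag density was 221 tags per kb, against 69.4 in shared peaks and 52.5 over all replicate 2 peaks. By score (minus 10 times the log10 of the authors' p), their median rank was in the top 4.67% of the replicate 2 list, against the top 11.9% for shared peaks. Their median fold enrichment was 7.08 (quartiles 5.86 and 8.89), below the 10.51 of shared peaks (quartiles 8.49 and 13.0) and the 8.17 of all replicate 2 peaks. Replicate 2-only peaks were thus the highest of the 3 groups by median tag density and the lowest by median fold enrichment.

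The strongest replicate 2-only peak by fold enrichment lay in the body of HOXA3 (chr7:27135816-27137694), with 35.88 in H3K27me3 replicate 2 and 11.02 and 3.6 in EZH2 replicates 1 and 2. At GABRB2, a subunit of the GABA-A receptor, fold enrichment was 24.95 for H3K27me3 and 6.33 and 4.25 for EZH2. Neither peak met JARID2 in any of 4 libraries.

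EZH2 of both replicates lay under a larger share of replicate 2-only peaks than of shared peaks. This share rose with peak width, from 10.4% of replicate 2-only peaks below 1 kb to 80.2% above 10 kb. For shared peaks it rose from 4.04% to 62.5%. EZH2 of both replicates was present at 984 of 1714 replicate 2-only peaks (57.4%, 55.1% to 59.7%), against 84 of 539 shared peaks (15.6%, 12.8% to 18.9%). EZH2 of replicate 2 alone lay under 463 of the 1714 replicate 2-only peaks and 318 of the 539 shared peaks. EZH2 peaks covered a median of 73.3% of a replicate 2-only peak and 47.9% of a shared peak. The replicate 2-only peaks took up 1179 of 2081 EZH2 replicate 1 peaks (56.7%) and 1401 of 3637 EZH2 replicate 2 peaks (38.5%), and the shared peaks 208 (10.0%) and 398 (10.9%).

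The EZH2 peaks under the 2 sets differed in width more than in strength. Under replicate 2-only peaks their median width was 3431 bp in EZH2 replicate 1 and 3133 bp in replicate 2, against 1306 and 887 bp under shared peaks. Their median EZH2 fold enrichment was 7.68 and 6.07, against 8.52 and 6.74 under shared peaks. The medians of the whole EZH2 lists were 8.12 and 6.63. Overlap with EZH2 chose both sets, so these values are also a description.

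Among peaks held by EZH2 of both replicates, the 10 with the best ranks of EZH2 fold enrichment included FOXD3, a neural crest factor (EZH2 18.47 and 12.43, H3K27me3 7.08). LGR6, an R-spondin receptor of the WNT pathway, had EZH2 values of 17.08 and 14.66 and an H3K27me3 value of 10.05. A peak in CELF4, a neuronal RNA-binding protein gene, had EZH2 values of 19.57 and 16.16 and an H3K27me3 value of 7.53. A peak of 418 bp at chr11:2869847-2870264 stood highest, with EZH2 at 19.66 and 21.51 and H3K27me3 at 22.12. The nearest coding gene to it was CDKN1C, an imprinted cell cycle inhibitor, 12954 bp away.

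Replicate 1 peaks were often close by. By definition none overlapped, and the median gap to the nearest was 7199 bp (quartiles 3170 and 25028 bp), against 6396 bp for replicate 2 peaks with neither EZH2 nor a replicate 1 peak. A replicate 1 peak lay within 10 kb of 1002 replicate 2-only peaks (58.5%) and of 58.9% of those other peaks, and it lay within 2 kb of 252 (14.7%) and of 27.5%. For 318 of the replicate 2-only peaks (18.6%) and 16.1% of those other peaks the nearest lay beyond 50 kb. Of the 90461 replicate 2 peaks 59.7% had no replicate 1 peak, and of the 2253 over EZH2 76.1%. The rule split the peaks by this overlap, so these shares are a description with no test.

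The rule's edge was thin for some peaks. The nearest replicate 2-only peak lay 1 bp from a replicate 1 peak (chr12:3360757-3368708, fold enrichment 9.5, nearest gene PRMT8, an arginine methyltransferase), and the next lay 5 bp away in the body of KLHL32. On the other side, a shared peak at MAN1C1, a mannosidase (chr1:25616739-25623411, fold enrichment 6.01), shared 2 bp with a replicate 1 peak, and one at BARHL1, a neural homeobox factor, shared 11 bp. Most shared peaks were deeply shared, since replicate 1 covered a median of 99.0% of their length. In 482 of 539 (89.4%) the replicate 1 peak itself overlapped EZH2.

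**Figure D3:**
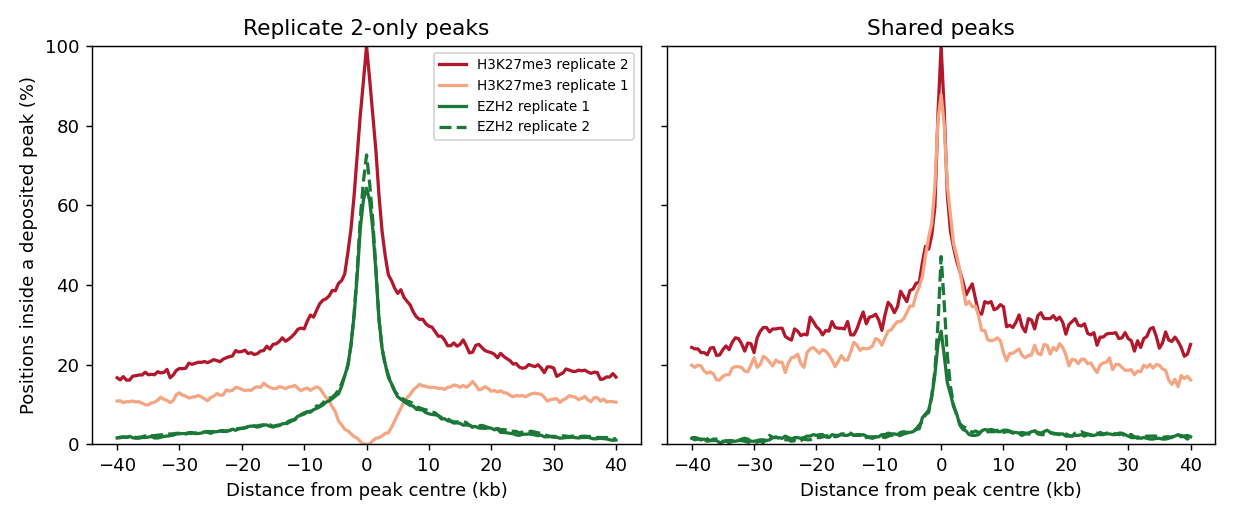
Percentage of positions inside a deposited peak (y axis) by distance from the centre of 1714 replicate 2-only peaks (left) and 539 shared peaks (right), in kb, for H3K27me3 replicates 1 and 2 and EZH2 replicates 1 and 2. At the centre EZH2 replicates 1 and 2 reached 64.3% and 72.6% in replicate 2-only peaks, against 28.4% and 47.1% in shared peaks; the dip of replicate 1 at the left centre is set by the rule.

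Replicate 2-only peaks sat at genes. A gene was counted as being at a peak when its start, or either end for the 4162 coding genes without a tabulated start, lay within 2 kb. By this measure 987 of 1714 replicate 2-only peaks (57.6%, 55.2% to 59.9%) were at a protein-coding gene, against 72 of 539 shared peaks (13.4%, 10.7% to 16.5%) and 4.33% of all replicate 2 peaks. A further 94 replicate 2-only peaks (5.48%) and 25 shared peaks (4.64%) were only at the start of a long non-coding RNA gene, against 2.35% of all. Peaks outside the bodies and sites of protein-coding genes made up 433 replicate 2-only peaks (25.3%) and 327 shared peaks (60.7%), against 63.6% of all replicate 2 peaks.

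The difference in gene position held within each class of width. Between 2 and 5 kb, 439 of 699 replicate 2-only peaks (62.8%) and 25 of 178 shared peaks were at a gene, and above 10 kb 82.6% of 172 and 65.6% of 32. With EZH2 of both replicates asked for, the sets became closer in width, with medians of 5055 and 4507 bp. Then 671 of 984 replicate 2-only peaks (68.2%, 65.2% to 71.0%) and 35 of 84 shared peaks (41.7%, 31.7% to 52.3%) were at a gene. The share for shared peaks had been 13.4% without this demand.

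In all, 1000 of 19974 coding genes (5.01%) had a replicate 2-only peak, 74 (0.370%) a shared peak, and 3127 (15.7%) any replicate 2 peak. FOXF1 and MAN1C1 had both kinds. The gene lists that follow are described by their counts beside these shares, with no test.

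HOX genes, which pattern the body axis, had replicate 2-only peaks in 24 of 39 cases (61.5%) and shared peaks in 0. All 24 HOX genes with any replicate 2 peak had a replicate 2-only one. A run of 17 such peaks, each within 5 kb of the next, covered 89.8% of chr2:176065491-176191715 from EVX2 to HOXD1. At HOXD4 fold enrichment was 14.38 for H3K27me3 replicate 2 and 15.12 and 13.16 for EZH2, and at HOXD3 it was 16.33 for H3K27me3 with EZH2 of replicate 2 alone (5.2). The nearest replicate 1 peak was 44219 bp from the HOXD4 peak and 31817 bp from the HOXD3 peak. On chromosome 7 a run of 12 peaks covered 87.8% of chr7:27128685-27227586, where HOXA11 had fold enrichments of 12.18 for H3K27me3 and 6.07 and 9.22 for EZH2. HOXC13 was the 1 HOXC gene counted, and HOXB1, HOXB2 and HOXB3 were the HOXB genes.

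Other developmental factors were also counted at these peaks. Homeobox factors outside the HOX clusters had a replicate 2-only peak at 61 of 125 genes (48.8%) and a shared peak at 6 (4.80%). The PAX, SOX, FOX, GATA and T-box families had them at 36 of 77 (46.8%) and 1 (1.30%), and basic helix-loop-helix and zinc finger developmental factors at 59 of 112 (52.7%) and 3 (2.68%). The last of these lists also held CBX8, a chromobox gene, and LHX8, a homeobox gene. Both were counted in another list as well, so the gene lists overlap. The median width of the replicate 2-only peaks at these lists ran from 6905 to 7355 bp.

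Single genes of these lists differed in how the 2 EZH2 replicates supported them. DLX6, a limb and craniofacial factor, had fold enrichments of 15.0 for H3K27me3 and 11.82 and 9.06 for EZH2. HAND1, a heart and placenta factor, had 13.21 and 10.72 and 9.89, and SOX3, a neural progenitor factor on chromosome X, 15.05 and 9.42 and 9.21. PAX6, the eye and pancreas factor, had 10.45 for H3K27me3 and 6.36 for EZH2 replicate 2, with no EZH2 replicate 1 peak. TFAP2B, a neural crest factor, likewise had 16.18 and 9.66 from EZH2 replicate 2 alone, in a peak of 957 bp.

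The homeobox genes at shared peaks were BARHL1, DLX1, GSX1, NKX2-8, POU3F1 and TLX2. The other factors there were FOXF1, EBF1, GCM2 and TFAP2D. At DLX1, a forebrain interneuron factor, the shared peak was 15731 bp wide with a fold enrichment of 7.85, and at POU3F1 it was 17571 bp wide with 9.77.

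Longer runs were found at other factors too. A run of 8 peaks covered 83.4% of a 39.5 kb stretch at DLX5 and DLX6, a run of 11 covered 66.4% of 35.8 kb at SOX2, the pluripotency and neural factor, and a run of 3 covered 90.9% of 40.3 kb at HAND2. In all the 1714 peaks formed 1415 runs, of which 1250 held a single peak and 15 held 5 or more.

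Signalling genes were also among those at these peaks. Among WNT ligands, receptors and secreted modulators 11 of 49 genes (22.4%) had a replicate 2-only peak and 3 (6.12%) a shared peak. The first set held the ligands WNT2, WNT3A, WNT5A and WNT7A, the R-spondins RSPO2 and RSPO3 that amplify the pathway, their receptors LGR5 and LGR6, and the inhibitors SFRP2, SFRP5 and NKD1. The second held the ligand WNT16 and the inhibitors DKK2 and SFRP1. At WNT3A the peak was 21193 bp wide, with fold enrichments of 9.89 for H3K27me3 and 8.77 and 7.23 for EZH2.

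Among BMP, TGF-beta, FGF and hedgehog ligands and their antagonists, 13 of 62 (21.0%) had a replicate 2-only peak and 4 (6.45%) a shared one. FGF8 and GDF6, a growth factor of joints, had H3K27me3 fold enrichments of 10.31 and 11.85. INHBB, an activin subunit, had 7.5 with EZH2 at 12.19 and 8.56, and NOG, a BMP antagonist, had 7.91. The 4 genes at shared peaks were BMP7, FGF10, FGF13 and IHH. At IHH, the hedgehog ligand of cartilage, the shared peak was 17248 bp wide.

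Neuronal channels and receptors had a replicate 2-only peak at 27 of 117 genes (23.1%) and a shared peak at 3 (2.56%), among them HTR2C and KCNA1. A further 46 of them had a replicate 2 peak but no replicate 2-only peak over EZH2, against 0 of the HOX genes. CACNA1E, a calcium channel, had fold enrichments of 12.54 for H3K27me3 and 6.53 and 4.74 for EZH2, with a replicate 1 peak 306 bp away. KCNC2, a potassium channel, had 8.66 and 7.1 from EZH2 replicate 2 alone, and its nearest replicate 1 peak lay 736855 bp away.

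**Figure D4:**
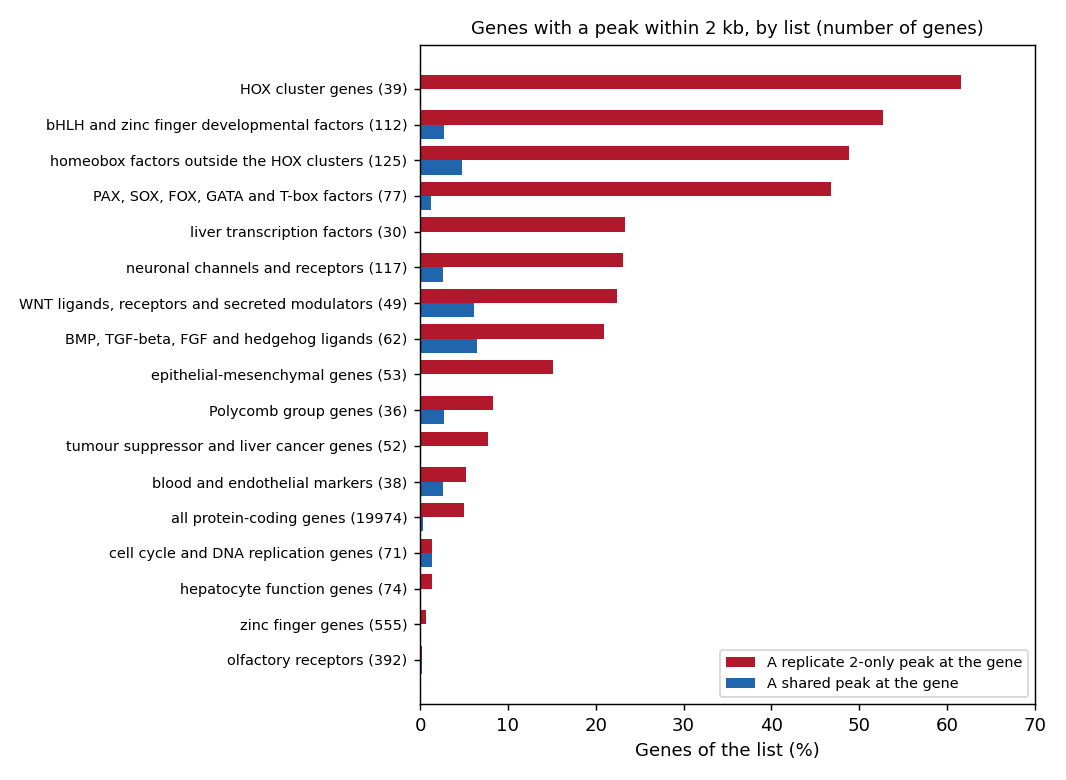
Percentage of the genes of each list (number of genes in brackets) with a replicate 2-only peak (upper bar) or a shared peak (lower bar) within 2 kb. The HOX cluster genes reach 61.5% and 0%, and all protein-coding genes 5.01% and 0.37%.

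Among genes of the liver, transcription factors and function genes were counted apart. Liver transcription factors had a replicate 2-only peak at 7 of 30 genes (23.3%) and a shared peak at 0. The 7 were CEBPA, FOXA2, GATA6, ONECUT1, ONECUT2, PROX1 and ESRRG. At CEBPA, a hepatocyte differentiation factor, the peak was 12774 bp wide with fold enrichments of 6.33 for H3K27me3 and 12.82 and 5.22 for EZH2, and it met a JARID2 peak of HepG2 replicate 1 (11.25). At PROX1, which the liver bud needs, H3K27me3 had 7.26 and EZH2 8.11 in replicate 1 alone, and at GATA6 H3K27me3 had 7.06 and EZH2 8.88 and 8.06. Of 74 hepatocyte function genes only BHMT, a methionine cycle enzyme, had a replicate 2-only peak (1.35%), and 19 more had other replicate 2 peaks.

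The remaining lists had small counts. Polycomb group genes had 3 of 36 (8.33%), among them the chromobox readers CBX2 and CBX8 at 1 peak (fold enrichment 5.53), and 1 shared peak at PCGF1. That shared peak is the same as the one at the homeobox gene TLX2. Tumour suppressor and liver cancer genes had 4 of 52 (7.69%), CDKN1C, FGF19, GPC3 and PROM1. Epithelial-mesenchymal genes had 8 of 53 (15.1%), among them the mesenchymal factor TWIST1 (7.7) and the epithelial factors OVOL2 (5.6) and GRHL2 (5.47). Blood and endothelial markers had 2 of 38 (5.26%), MS4A1 and VWF, and cell cycle genes 1 of 71 (1.41%), BIRC5. The peak at VWF was also at ANO2, and the peak at BIRC5 was also at TMEM235. Genes without a tabulated start could be counted by either end, so a count need not mean a peak at the promoter. Olfactory receptors had 1 of 392 (0.255%), OR4D2, although 102 had some replicate 2 peak, and zinc finger genes had 4 of 555 (0.721%).

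JARID2 peaks met the replicate 2-only peaks mostly in HepG2 replicate 1. In that library 497 of 1714 replicate 2-only peaks (29.0%, 26.9% to 31.2%) overlapped JARID2, against 28 of 539 shared peaks (5.19%, 3.62% to 7.41%) and 1.97% of all replicate 2 peaks. In HepG2 replicate 2 it was 1 peak (0.0583%, 0.0103% to 0.330%) and 1 shared peak (0.186%, 0.0328% to 1.04%), against 0.181% of all. In THLE-2 replicate 1 it was 72 (4.20%, 3.35% to 5.26%) and 9 (1.67%, 0.881% to 3.14%), against 0.694% of all. In THLE-2 replicate 2 it was 64 (3.73%, 2.93% to 4.74%) and 6 (1.11%, 0.511% to 2.41%), against 0.563% of all.

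The share was higher for replicate 2-only peaks in 3 of 4 JARID2 libraries, with a mean difference of 7.21 percentage points (SD 11.1, n = 4 libraries). An exact sign-flip permutation test over the libraries gave a two-sided p of 0.25, where the smallest possible is 0.125. Without HepG2 replicate 1 the mean difference was 1.67 points, and among peaks 2 to 5 kb wide it was 7.96 points, higher in every library. In HepG2 replicate 2 this order rested on 1 of 699 replicate 2-only peaks against 0 of 178 shared peaks. Below 2 kb counts were small and the order of the sets differed between libraries. Between the lines, the mean share of replicate 2-only peaks with JARID2 was 14.5% in HepG2 and 3.97% in THLE-2, but the HepG2 replicates lay on either side of both THLE-2 libraries (exact permutation p = 1, smallest possible 0.333). HepG2 JARID2 replicates 1 and 2 held 7.95 M and 14.6 M filtered tags, and their peaks had median false discovery rates of 1.29% and 100%; the part of these values in the result was not tested.

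**Figure D5:**
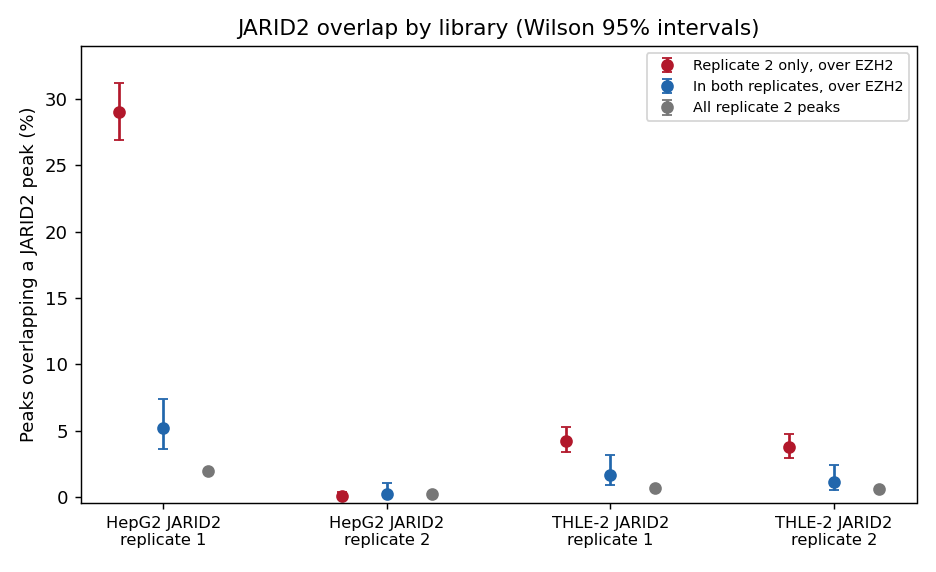
Percentage of H3K27me3 replicate 2 peaks that overlap a JARID2 peak (y axis) in each of 4 JARID2 libraries, for replicate 2-only peaks over EZH2, shared peaks over EZH2 and all replicate 2 peaks, with Wilson 95% intervals. Replicate 2-only peaks reach 29.0% in HepG2 replicate 1 and 0.0583% in HepG2 replicate 2.

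Width and EZH2 support both moved with the JARID2 share. In HepG2 replicate 1, 27.5% of replicate 2-only peaks and 1.69% of shared peaks between 2 and 5 kb had JARID2, and 51.2% and 34.4% of those above 10 kb. Where EZH2 of both replicates was present the shares were 35.5% (32.5% to 38.5%) and 16.7% (10.2% to 26.1%). Per megabase covered, 57.2 replicate 2-only peaks and 17.2 shared peaks were overlapped in this library. In THLE-2 replicates 1 and 2, 4.58% and 3.58% of replicate 2-only peaks between 2 and 5 kb had JARID2. For shared peaks of that width it was 1.69% and 0.562%. Above 10 kb the sets were close, with 6.98% of replicate 2-only and 6.25% of shared peaks in each THLE-2 library. Among replicate 2 peaks of that width with neither EZH2 nor a replicate 1 peak, it was 6.40% and 5.81%. With the 4075 best-scoring peaks of each JARID2 list, the share of replicate 2-only peaks was 16.5% in HepG2 replicate 1, 0.0583% in HepG2 replicate 2, and 3.38% and 2.92% in THLE-2. With JARID2 scores of at least 100, HepG2 replicates 1 and 2 kept 1546 and 56 JARID2 peaks and gave shares of 9.22% and 0%. The THLE-2 replicates kept 69 and 86 and gave 0% and 0.117%. The mean difference between replicate 2-only and shared peaks was then 2.19 percentage points.

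Most JARID2 peaks that overlapped these peaks touched EZH2 of THLE-2, which every one of these peaks was chosen to overlap. EZH2 was not assayed in HepG2. EZH2 peaks covered 66.5% of all bases of the replicate 2-only peaks, which is a share of bases and not of JARID2 peaks. Of the 579 HepG2 replicate 1 JARID2 peaks that overlapped replicate 2-only peaks, 553 (95.5%) overlapped THLE-2 EZH2 by at least 1 bp. For JARID2 of THLE-2 it was 67 of 75 (89.3%) and 60 of 65 (92.3%). The 579 made up 3.69% of the HepG2 replicate 1 list. Their median JARID2 fold enrichment of 9.75 in HepG2 replicate 1 was near the 10.3 of the whole list.

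Replicate 2-only peaks with HepG2 JARID2 of replicate 1 were wider and more often at genes than the others. Their median width was 5682 bp against 3492 bp, and 383 of 497 (77.1%) were at a coding gene against 604 of 1217 (49.6%). This gene contrast was not matched for width. Among all replicate 2-only peaks the share with this JARID2 was 0.649% below 1 kb and 51.2% above 10 kb. The share at a gene was 8.44% and 82.6%. JARID2 of either THLE-2 library was at 132 replicate 2-only peaks, and 59 of these (44.7%) also had HepG2 JARID2 of replicate 1, which is 11.9% of the 497. The THLE-2 replicates shared 4 peaks.

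JARID2 of any library lay at 570 replicate 2-only peaks (33.3%) and 43 shared peaks (7.98%), against 3.28% of all replicate 2 peaks. Those with JARID2 in at least 2 libraries numbered 62 replicate 2-only peaks (3.62%), against 1 shared peak (0.186%) and 0.124% of all replicate 2 peaks. JARID2 was found in 3 libraries at 2 of them. At PAX9, a tooth and thymus factor (chr14:36653777-36665023), JARID2 had fold enrichments of 11.77 in HepG2 replicate 1 and 8.97 and 11.43 in THLE-2, beside 7.51 for H3K27me3 and 7.98 and 5.38 for EZH2. At GSC2, a goosecoid-related homeobox gene, and its neighbour ESS2 (chr22:19145881-19154588), JARID2 had 12.35, 8.4 and 6.08, beside 6.74 for H3K27me3 and 12.62 and 7.32 for EZH2. HepG2 replicate 2 had no peak at either.

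Others had JARID2 in HepG2 replicate 1 and 1 THLE-2 library. These included MNX1 (11.57 and 11.29), ZIC5, a neural crest factor (10.24 and 8.75), FGF8 (14.22 and 7.53) and LHX8, a forebrain factor (13.66 and 9.53). A peak next to TBR1, a cortical T-box factor 98 bp outside its gene, had 18.41 and 5.44. At HOXD4, HOXD3, HAND1 and DLX6 no JARID2 peak was called in any of 4 libraries.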

How the data were processed

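Tools named by the submitters' processing notes are cutadapt and Bowtie2, with GRCh38 as build; for both, role and version were not given in the sources used here. The authors, per the file headers, called peaks with MACS 1.4.2 in each immunoprecipitate against its own input, with p below 1e-05 and at most 1 tag per position. The deposited lists give a tag count, a score of minus 10 times the log10 of p, a fold enrichment (a ratio to local input), a false discovery rate in percent and a width for every peak. Replicates were not pooled. Input and immunoprecipitate were scaled to the smaller library, so a missing peak is an absent call, not shown absence of the mark.

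Peaks on chromosomes 1 to 22 and X were intersected (1 bp or more) in Python 3.11.15 with numpy 2.4.6, pandas 2.3.3 and scipy 1.17.1. The interval code was tested on simulated data. Genes and starts are from RefSeq GRCh38.p14; starts were tabulated for 15812 of 19974 coding genes. Either end served for the other 4162, and none on chromosome 8 had a start. Wilson intervals (95%) cover counting error only. Genes were named by rank in fold enrichment, width, EZH2 rank or JARID2 libraries, up to 4 per list, or at the rule's edge, and counts of few genes were named in full; others were named after their values were seen. The peak sets and gene lists were chosen with earlier results of these data known. Some genes that this naming takes are not reported here.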

Additional observations from a re-analysis of the deposited data

How the results depend on the processing

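Replicate 2-only peaks stayed above shared peaks in mean JARID2 share and gene share under each alternative run for these. In median width they did so under the 2 run for it, but with overlapping intervals under 1 of these. With EZH2 of both replicates, 984 replicate 2-only and 84 shared peaks remained, with gene shares of 68.2% and 41.7%. Their median widths were 5055 bp (95% interval 4812 to 5404) and 4507 bp (3445 to 5680), so these intervals overlapped. With EZH2 scores of at least 100, 124 shared peaks remained and the gene shares were 67.0% and 36.3%. With no replicate 1 peak within 10 kb, 712 replicate 2-only peaks remained. With replicate 2 scores of at least 100 the median widths were 4320 and 2205 bp and the gene share of replicate 2-only peaks 61.9%, and with EZH2 overlaps of at least 500 bp it was 60.2%. Windows of 5 kb gave 63.8% and 17.4%, a window of 0 kb 52.6% of replicate 2-only peaks, either end for all genes 61.6% and 17.1%, and known starts alone 41.2% and 9.65%; the last 2 choices were made after seeing the data. Leaving out 1 EZH2 replicate gave 1251 to 1447 replicate 2-only and 221 to 402 shared peaks, with gene shares of 59.5% to 63.7% and 15.4% to 20.4%. Leaving out 1 EZH2 or JARID2 library gave a JARID2 difference of 1.67 to 9.65 points. The cause of these shifts was not tested. No paired analysis was possible because, for samples sharing a replicate number, peak lists allow no model over samples; the sign-flip test pairs the 2 peak sets within each JARID2 library. With JARID2 scores of at least 100 the JARID2 difference was 2.19 points.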

Other observations

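The share of replicate 2 peaks that were replicate 2-only peaks over EZH2 differed among chromosomes, from 1.18% on chromosome 21 (12 of 1013) to 3.91% on chromosome X (48 of 1227) and 3.33% on chromosome 19 (52 of 1563). Among replicate 2 peaks over EZH2, the replicate 2-only share was 59.7% on chromosome 16 and 89.2% on chromosome 4. A further 63 replicate 2 peaks lay on other sequences of the assembly, and 5 of them met the rule.

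Some of the peaks with the highest EZH2 ranks lay away from protein-coding genes. The peak at chr2:91478088-91478866 had EZH2 fold enrichments of 19.0 and 15.99 and an H3K27me3 value of 7.97, and lay 33987 bp from LOC124905938. The peak at chr1:143496967-143498094 had EZH2 values of 18.35 and 15.67 and an H3K27me3 value of 6.1, and lay 404292 bp from H3-7, the nearest coding gene, but within 2 kb of the start of a long non-coding RNA gene. The nearest replicate 1 peaks were 1628850 and 153057 bp away. Both H3K27me3 calls were weak by score, with 55.25 and 67.61 from 43 and 53 tags. The medians of all replicate 2 peaks were a score of 94.56 and 58 tags.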
